A study of Mus musculus with 4 samples.

Results

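Transitional nuclei low in surfactant RNA come from cells sorted for a reporter of the alveolar type 2 (AT2) lineage. They held RNA of an injury-associated intermediate state and little RNA of the surfactant system, and the lineage of each nucleus was not tested. They were chosen by the RNA counts of each nucleus. A member had at least 3 UMIs (counted RNA molecules) over 6 marker genes (Abcb1b, Atg9b, Dscaml1, Anks1b, Tshr and Eda2r). Its 8 surfactant-system genes (Sftpb, Sftpa1, Sftpd, Slc34a2, Lamp3, Abca3, Cxcl15 and Lpcat1) made up under 1% of UMIs from nuclear-encoded genes. It had fewer than 3 UMIs over 5 alveolar type 1 (AT1) genes (Rtkn2, Sema3a, Kcnn3, Map6 and Hecw1) and none of Ptprc, the pan-leukocyte gene. This gave 562 nuclei of the 8633 that passed limits on depth and mitochondrial RNA, out of 24494 deposited barcodes. Of these members 313 came from the CKO library and 249 from the control library.

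AT2 cells are cuboidal cells that make and secrete surfactant, and after injury they divide and can flatten into the AT1 cells through which gas is exchanged. On the way, many pass through an intermediate state in which surfactant genes are turned down and genes of the p53 response, keratins and cell junctions are turned up. The transcription factor p53 raises Mdm2, whose product in turn directs p53 to degradation, and Cdkn1a, which halts the cell cycle.

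The study measured nuclear RNA and open chromatin in the same nuclei (10x multiome) from lungs of male mice on day 8 after bleomycin injury. CKO mice were SftpcCreERT2; Rosa26mTmG; IPF/F and control mice SftpcCreERT2; Rosa26mTmG, and GFP-positive cells were sorted from both. Both genotypes thus carried a tamoxifen-inducible Cre driven by Sftpc, the surfactant protein C gene, and a reporter that makes recombined cells green. The floxed gene of the CKO mice encodes IP, the prostaglandin I2 receptor (Ptgir), and how many animals went into a library was not stated.

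There were 2 joint libraries, 1 per genotype, so genotype and library cannot be told apart. No test between them was possible, and every interval below is a 95% interval that covers counting error only. The CKO library held 10925 barcodes with 30818808 UMIs and the control library 13569 barcodes with 48378328 UMIs. At or over the mitochondrial limit of 20% lay 4365 CKO barcodes (40.0%) and 8407 control barcodes (62.0%). The libraries shared 193 barcode sequences, and none of these was a member in both. Ptgir had a UMI in 0 of 313 CKO members and 1 of 249 control members, too few to check the genotype, so every direction between the libraries rests on the label. Barcodes were not screened for doublets.

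The median depth of members was 3834 UMIs in the CKO library and 3962 in the control library. AT2-rich nuclei (surfactant share of 1% or more, fewer than 3 marker UMIs, fewer than 3 UMIs of the AT1 genes, Ptprc at 0) had medians of 2842 and 3059 UMIs. AT1-like nuclei (3 or more UMIs of the AT1 genes, surfactant under 1%, Ptprc at 0, no limit on marker UMIs) had 5100 and 5008. Members had a median surfactant share of 0.268% in the CKO library and 0.285% in the control library, and a median of 5 and 4 marker UMIs.

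Members made up 6.14% of kept nuclei in the CKO library (313 of 5101 nuclei, with an exact interval from 5.49% up to 6.83%). In the control library they made up 7.05% (249 of 3532 nuclei, 6.23% up to 7.94%). The intervals overlapped, and the direction depended on the limits. The kept nuclei also differed in make-up, since nuclei with Ptprc were 26.2% of them in the CKO library and 4.81% in the control library. Without a mitochondrial limit the shares of members were 4.67% in the CKO library and 3.56% in the control library. They were 9.23% and 7.43% when nuclei with 2 or more general leukocyte UMIs were left out, and 7.65% and 6.97% when nuclei with UMIs of other lineages were. The general leukocyte list stood higher in AT2-rich nuclei than in members of both libraries, so that limit may not act on leukocytes alone. With every nucleus thinned to 1000 nuclear-encoded UMIs before the rule was applied, the shares of members were 2.01% (1.64 to 2.44) and 2.13% (1.66 to 2.67). Then 182 CKO and 192 control nuclei were too shallow to enter. Among nuclei of 4 alveolar classes (members, AT2-rich, AT1-like, and nuclei with both surfactant and marker RNA), members were 13.8% in the CKO library (12.4 to 15.2) and 19.5% in the control library (17.3 to 21.8). That denominator left out 29.2% of kept CKO nuclei and 59.0% of kept control nuclei, which had no Ptprc and met none of these definitions.

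Some members carried RNA of cells outside the lineage. At least 3 UMIs of a ciliated, endothelial, fibroblast or leukocyte list were found in 59 of 313 CKO members and 19 of 249 control members. The ciliated list reached this in 16 CKO and 12 control members, the leukocyte list in 27 and 3, the endothelial list in 9 and 4, and the fibroblast list in 9 and 1. At least 10 UMIs of any of these lists were found in 26 CKO and 3 control members, and of the ciliated list in 11 and 1. On wider lists, all 13 ciliated and club cell genes had UMIs in CKO members, at a summed 1786 CPM (UMIs scaled to 1000000 nuclear-encoded UMIs), and 10 of 13 did in control members, at 199.9 CPM. Of 12 neutrophil genes 11 were detected in CKO members, at a summed 457 CPM, and 3 in control members, at 268 CPM, where S100a8, S100a9, Csf3r and Cxcr2 were among those at 0. AT2-rich nuclei held more of this list, at 1105 CPM in the CKO library and 965 in the control library. Its sum therefore does not by itself mark neutrophil RNA. All 12 endothelial genes had UMIs in CKO members (142 CPM) and 6 in control members (41.0 CPM), where Cdh5 and Kdr were at 0. Counts over lists and the main genes of the contrast between libraries are therefore also given without the nuclei that reached 3 such UMIs, which leaves 254 CKO and 230 control members. That step did not cover a list of 8 mesothelial and basal cell genes. The list stood at 117 CPM in CKO members and 18.8 in control members, against 7.22 and 1.44 in AT2-rich nuclei. At least 10 of its UMIs were found in 4 CKO and 0 control members.

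The first comparison places the members among the other alveolar nuclei of their own library. RNA chose the members, so the RNA values here describe them and support nothing further. Abcb1b, which encodes a drug efflux pump, stood at 349 CPM in CKO members (431 UMIs) and 8.23 in CKO AT2-rich nuclei. In the control library it stood at 175 CPM in members (205 UMIs) and 2.51 in AT2-rich nuclei. Its close paralog Abcb1a had 13 UMIs in CKO members and 4 in control members, and how reads that fit both genes were counted is not given in the sources used here. Dscaml1, a cell adhesion gene of neurons, was at 334 CPM in CKO members against 5.82 in AT2-rich nuclei, and at 261 in control members against 5.03. Anks1b, which encodes a scaffold protein of synapses, was at 420.2 CPM in CKO members against 17.7, and at 392.2 in control members against 15.8.

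Tshr, the thyrotropin receptor gene, stood at 220.2 CPM in CKO members against 7.83 in CKO AT2-rich nuclei, and at 267 in control members against 16.5. Eda2r, a receptor gene for ectodysplasin A2 and a p53 target, stood at 149.8 CPM in CKO members against 8.03, and at 139 in control members against 5.74. Atg9b, an autophagy gene whose extent shares 294 bases with Nos3, stood at 118 CPM in CKO members against 1.61, and at 23.9 in control members against 0.359, the last from 1 UMI. Whether counting used strand is not given in the sources used here, so reads of Atg9b and Nos3 cannot be told apart over those bases. In AT1-like nuclei Anks1b stood at 61.1 CPM in the CKO library and 106 in the control library, and Abcb1b at 42.9 and 36.3, below the members of the same library. Atg9b stood at 16.5 CPM in CKO AT1-like nuclei and 19.97 in control AT1-like nuclei, where its log2 ratio, members over AT1-like nuclei, was 0.26 (-0.60 to 1.14). It had a UMI in 7.23% of control members and 7.65% of control AT1-like nuclei, so Atg9b did not set control members apart from that class.

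**Figure D1:**
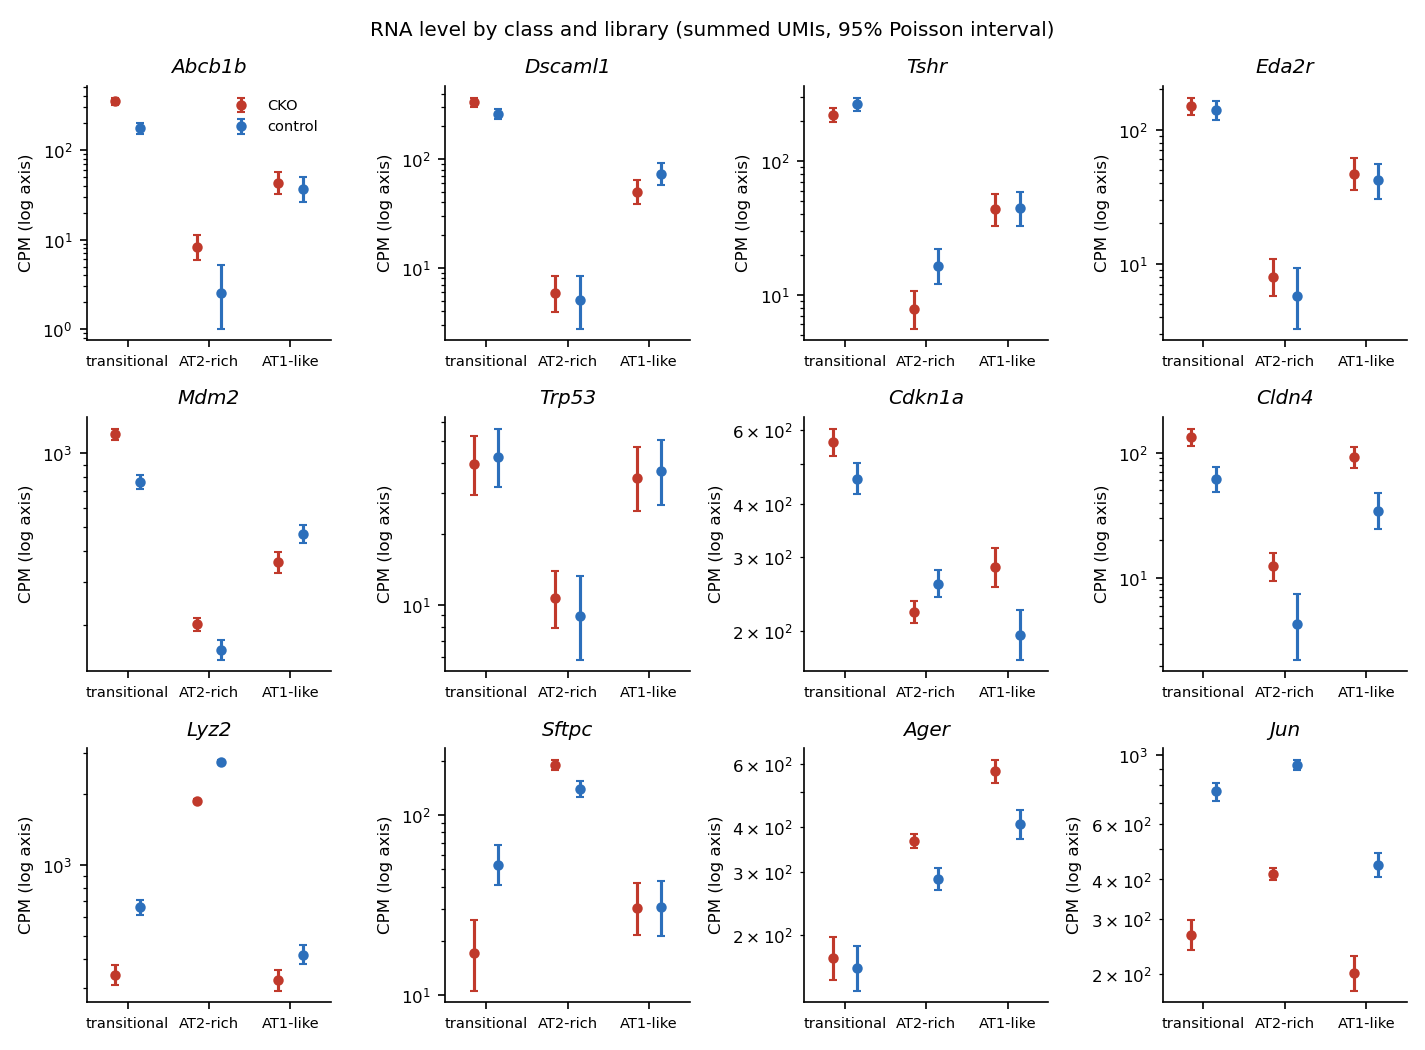
RNA level in CPM (log axis) of 12 genes in transitional, AT2-rich and AT1-like nuclei of the CKO (red) and control (blue) libraries; points are summed UMIs of a class and bars 95% Poisson intervals. Mdm2 and the 4 rule markers shown are highest in transitional nuclei of both libraries, Lyz2 and Sftpc are highest in AT2-rich nuclei, and Jun is lower in CKO than in control nuclei of all 3 classes.

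Free RNA in droplets gives UMIs in nuclei that do not express a gene. Nuclei with Ptprc give a rough scale for it, although their own expression was not separated out. Abcb1b had a UMI in 51.8% of CKO members and 36.1% of control members, against 11.7% and 10.0% of nuclei with Ptprc, whose median depths were 2652 and 2038 UMIs. With each nucleus thinned to 1000 UMIs, Abcb1b was found in 28.5% of CKO members and 16.5% of control members, against 5.15% and 5.26% of nuclei with Ptprc. The rule counted Abcb1b, so a higher share in members was set by their choice and cannot be read against free RNA.

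Mdm2 marks this state but was not counted by the rule. It stood at 1199.1 CPM in CKO members (1481 UMIs), 202 in AT2-rich and 360.0 in AT1-like nuclei of the CKO library. In the control library it stood at 766 CPM in members (897 UMIs), 159 in AT2-rich and 470.2 in AT1-like nuclei. Members were the highest of these classes in both libraries. The log2 ratio of Mdm2 over AT2-rich nuclei was 2.57 (2.45 to 2.69) in the CKO library and 2.27 (2.10 to 2.44) in the control library. On thinned counts Mdm2 had a UMI in 51.5% of CKO members and 42.7% of control members, against 21.9% and 18.4% of nuclei with Ptprc. The marker values thus do not go against the label transitional.

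Trp53, the p53 gene itself, was at 39.7 CPM in CKO members (49 UMIs) and 10.6 in AT2-rich nuclei, and at 42.7 in control members (50 UMIs) and 8.97 in AT2-rich nuclei. AT1-like nuclei had it at 34.7 CPM in the CKO library and 37.2 in the control library, within the counting error of the members. Cdkn1a was at 562 CPM in CKO members, 222 in AT2-rich and 284 in AT1-like nuclei, and at 461, 259 and 196 CPM in the same classes of the control library. Its log2 ratio over AT2-rich nuclei was 1.34 (1.2 to 1.48) in the CKO library and 0.83 (0.67 to 0.99) in the control library, past 2-fold in the CKO library alone.

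Of 9808 genes with at least 20 UMIs over members and AT2-rich nuclei in each library, 600 (6.12%) were at least 2-fold higher in members of both libraries and 160 (1.63%) at least 2-fold lower. Of 32 measured p53 targets 19 were among the higher and 0 among the lower, and Eda2r, counted by the rule, is 1 of the 19. The median log2 ratio of the targets was 1.5 in the CKO library and 1.18 in the control library, beside 0.30 and 0.17 over all genes. Ptp4a3, a phosphatase gene, stood at 105 CPM in CKO members against 13.4 in AT2-rich nuclei, and at 31.6 in control members against 6.82. Trp53inp1, which encodes a p53-induced nuclear protein, stood at 876 CPM in CKO members against 339, and at 533 in control members against 165. Gtse1, whose product binds p53, had log2 ratios of 2.66 in the CKO library and 3.75 in the control library, from 33 and 17 UMIs in members.

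Other p53 targets past 2-fold in both libraries act in growth arrest, cell death and stress. Ccng1 (cyclin G1) had log2 ratios over AT2-rich nuclei of 1.13 in the CKO library and 1.52 in the control library, and the cell death gene Bbc3 1.66 and 1.03. The death receptor gene Fas had 1.76 and 2.02, and Gdf15, which encodes a secreted stress factor, 2.28 and 2.06. The lowest of the list in both libraries were Gpx1, a peroxidase gene, at -0.47 and -0.88, and Dcxr, a sugar reductase gene, at -0.13 and -0.34.

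Taken within each library alone, 17.6% of 12117 genes were 2-fold higher than in AT2-rich nuclei and 5.65% lower in the CKO library, and 10.5% and 4.1% of 9921 in the control library. Against AT1-like nuclei, 15 of 34 p53 targets were at least 2-fold higher in CKO members and 0 lower, where 7.41% of 10381 genes were higher and 3.35% lower. In control members 11 of 32 were higher and 0 lower, where 4.44% of 8823 genes were higher and 4.98% lower. Gdf15 was highest in both, with log2 ratios over AT1-like nuclei of 2.86 in the CKO library and 2.75 in the control library. The transitional state list (keratins, claudins and injury-response genes) stood differently. Of its 29 measured genes 0 were 2-fold higher than in AT1-like nuclei and 4 lower in the CKO library, and 2 were higher and 6 lower in the control library. Itgb6, an integrin subunit gene whose product activates TGF-beta, stood at 224 CPM in CKO members and 817 in CKO AT1-like nuclei, and at 171 in control members and 547 in control AT1-like nuclei.

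Over AT2-rich nuclei, 12 of 28 transitional state genes were 2-fold higher in members of both libraries and 0 lower. They were Krt19, Cldn4, Sfn, Itgb6, Ndrg1, Sprr1a, Ctgf, Plaur, Tnip3, Fn1, S100a6 and S100a10. Cldn4, a tight junction claudin gene, stood at 134 CPM in CKO members against 12.4 in AT2-rich nuclei, and at 61.5 in control members against 4.31. Tnip3, which encodes an inhibitor of NF-kB signalling, stood at 196 CPM in CKO members against 29.5, and at 163 in control members against 11.5. Krt8, a keratin gene often used to name the intermediate state, did not set members apart. It stood at 393 CPM in CKO members, 285 in AT2-rich and 511 in AT1-like nuclei, and at 262, 249 and 218 CPM in the same classes of the control library. Its log2 ratio over AT2-rich nuclei was 0.46 (0.31 to 0.61) in the CKO library and 0.07 (-0.12 to 0.27) in the control library.

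Among the 12 genes furthest above AT2-rich nuclei in both libraries were the 6 markers of the rule and Ano3, Itga2, Pvt1, Cd109 and Pid1. Itga2, the gene of collagen-binding integrin alpha 2, stood at 65.6 CPM in CKO members (81 UMIs) against 2.01 in AT2-rich nuclei, and at 54.7 in control members (64 UMIs) against 0.718, the last from 2 UMIs. It was higher still in CKO AT1-like nuclei, at 152 CPM, and at 50.8 in control AT1-like nuclei. Pvt1, a long noncoding RNA gene beside Myc, stood at 379.7 CPM in CKO members against 21.5, and at 234 in control members against 11.1. AT1-like nuclei had Pvt1 at 211 CPM in the CKO library and 263 in the control library. Cd109, which encodes a surface protein that binds TGF-beta, had 76 UMIs in CKO members and 13 in AT2-rich nuclei. It had 27 UMIs in control members and 0 in control AT2-rich nuclei, at least 4.42 higher on the log2 scale against a floor of 3 counts over the class. AT1-like nuclei had Cd109 at 10.7 CPM in the CKO library, against 61.5 in CKO members, and at 22.7 in the control library, against 23.1 in control members.

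Long genes best known from neurons were high as a group relative to AT2-rich nuclei. Of 31 measured in both libraries, 18 were 2-fold higher in members of both and 0 lower, and Dscaml1 and Anks1b are among the 18. The median log2 ratio of the list was 2.17 in the CKO library and 2.52 in the control library. The list stood less far above AT1-like nuclei. Against them 13 of 33 were 2-fold higher in CKO members and 7 lower, with a median of 0.46. In control members 10 of 33 were higher and 9 lower, with a median near 0. The lowest in both libraries, Sema3a, Kcnn3, Hecw1 and Map6, are AT1 genes of the rule. Their place, like that of Dscaml1 and Anks1b, was set by the choice of the classes. Gria3, a glutamate receptor subunit gene, stood at 113 CPM in CKO members against 6.02 in AT2-rich nuclei, and at 118 in control members against 10.8. Grip1, whose product anchors such receptors, stood at 261 CPM in CKO members against 12, and at 152 in control members against 11.8. Nrg1, the neuregulin 1 gene, stood at 376 CPM in CKO members and 287 in control members, and higher in AT1-like nuclei, at 549.9 and 519. Cacna1c, a calcium channel gene, lay below AT2-rich nuclei, with log2 ratios of -1.48 in the CKO library and -0.24 in the control library.

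AT2 genes that the rule did not count were low with those it did. Of 24 measured, 17 were at least 2-fold lower in members of both libraries and 0 higher, with median log2 ratios of -2.08 in the CKO library and -1.39 in the control library. Lyz2, a lysozyme gene, stood at 342 CPM in CKO members against 1865 in AT2-rich nuclei, and at 661 in control members against 2738. Sftpc stood at 17.0 CPM in CKO members (21 UMIs) against 191, and at 53 in control members (62 UMIs) against 140.3. Napsa, whose product processes surfactant protein, stood at 73.7 CPM in CKO members against 446, and at 196 in control members against 639. Of 17 lung epithelial transcription factor genes, Etv5 (-2.10 in the CKO library and -1.18 in the control library) and Cebpa (-1.40 and -1.02), both active in AT2 cells, were 2-fold lower in both, and 0 were higher. Nkx2-1, which marks lung epithelium, was at -1.17 in the CKO library and -0.50 in the control library.

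AT1 identity genes differed between the libraries. Of 26 measured, 3 were 2-fold higher than in AT2-rich nuclei and 4 lower in the CKO library, with a median log2 ratio of -0.16. Among control nuclei 9 were higher and 1 lower, with a median of 0.57. In both libraries 3 (Cav1, Ahnak and Itgb6) were higher and 1 (Clic3) was lower. Against AT1-like nuclei, 17 of 26 were 2-fold lower in CKO members and 18 of 27 in control members, and 0 were higher. Ager, which marks AT1 cells, stood at 172 CPM in CKO members against 366 in AT2-rich and 573 in AT1-like nuclei, and at 161 in control members against 286 and 407. Hopx, a homeodomain gene of AT1 cells whose extent overlaps Hopxos, stood at 52.6 CPM in CKO members against 135 in AT1-like nuclei, and at 17.1 in control members against 87.1. Of 12 measured cell cycle genes 0 were 2-fold higher or lower in both libraries. Top2a, active in dividing cells, had a UMI in 7 of 313 CKO members (2.24%) and 6 of 249 control members (2.41%), against 1.42% and 1.14% of AT2-rich and 2.5% and 3.57% of AT1-like nuclei. The shares of both other classes lay within the counting interval of the members in each library.

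Nuclei with exactly 3 marker UMIs, 87 in the CKO library and 81 in the control library, had Mdm2 at 1083 and 439 CPM. Nuclei with 2 marker UMIs that met the other conditions, 151 and 119 in number, had it at 788 and 509 CPM. At the surfactant limit, Lyz2 was at 1071 CPM in 19 CKO members and 1746 in 24 control members with a share of 0.8% to 1%. Just outside, at 1% to 1.2%, it was at 708 and 1350.1 CPM in 17 nuclei of each library.

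The members differed among themselves along both axes of the rule. A single marker supplied all marker UMIs in 54 CKO members (17.3%) and 66 control members (26.5%), and at least 3 markers had UMIs in 152 (48.6%) and 79 (31.7%). Mdm2 stood at 716 CPM in CKO members with 1 marker, 1086 in those with 2 and 1432 in those with 3 or more. In control members it stood at 594, 597 and 1153 CPM, so the members with most markers were highest in both libraries. The median depth of these groups lay between 3797 and 3870 UMIs in the CKO library and between 3858 and 4127 in the control library.

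Along the surfactant axis the libraries parted. Members with a surfactant share under 0.25% had Mdm2 at 1309.8 CPM in the CKO library (1221 to 1403) and 1289.7 in the control library (1177 to 1410.2). At 0.25% to 0.5% the levels were 1154 and 632 CPM, at 0.5% to 0.75% they were 1132 and 375, and at 0.75% to 1% they were 760.1 and 519. The intervals of the libraries overlapped in the lowest group and not in the next 2. Median depth over these 4 groups was 4110, 3192, 3694 and 4837 UMIs in CKO members and 3213, 3778, 4800 and 7160 in control members. It was highest in the control group with the most surfactant, and the part of depth in the Mdm2 levels was not tested. Cldn4 stood at 187 CPM in CKO and 136 in control members of the lowest group, and at 98.6 and 49.6 in the next. Lyz2, outside the rule, ran the opposite way, at 226 CPM in CKO and 139 in control members of the lowest group and 966 and 1682 in the highest. Under 0.25% lay 143 CKO members (45.7%) and 104 control members (41.8%), and from 0.75% to 1% lay 22 (7.03%) and 33 (13.3%).

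**Figure D2:**
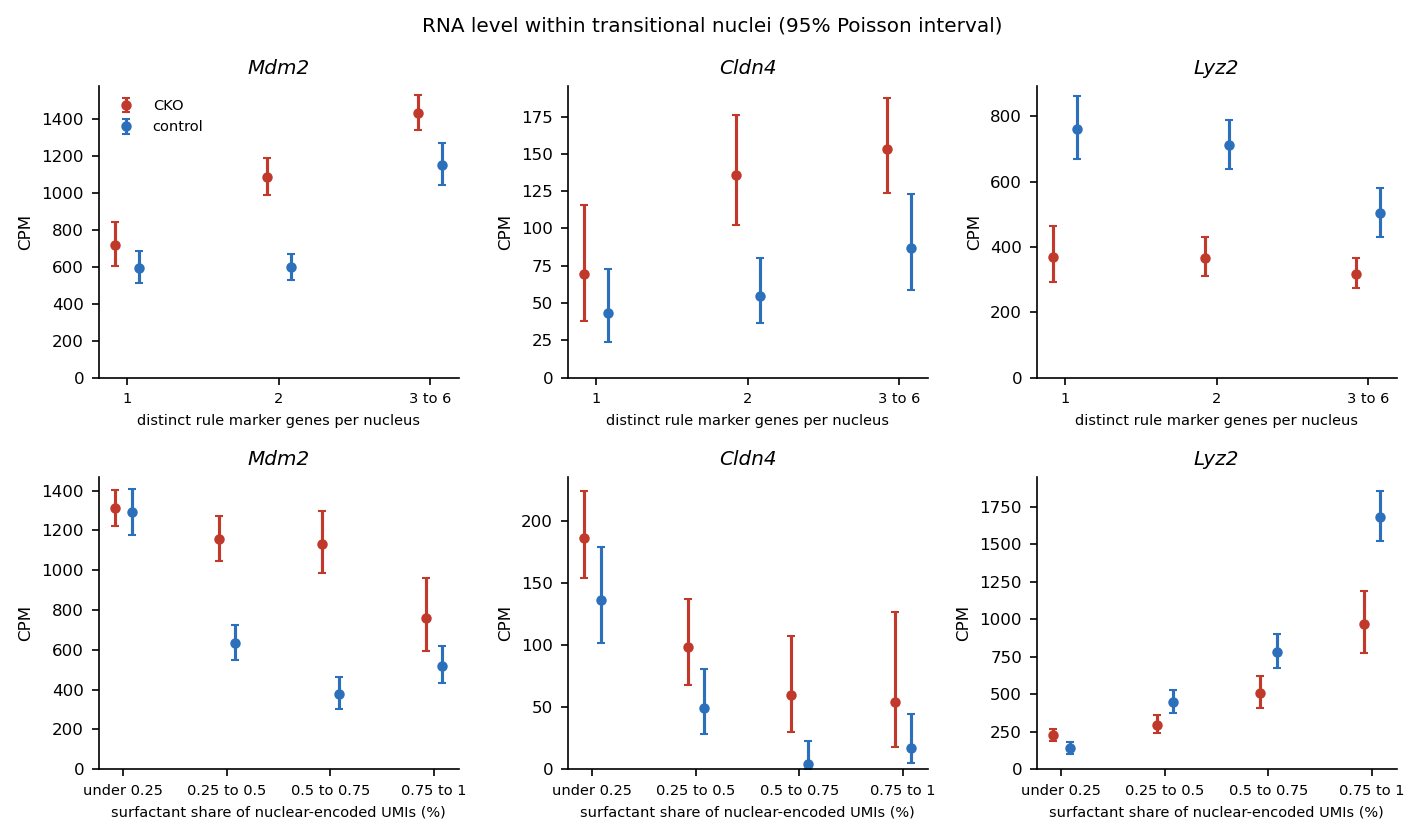
RNA level (CPM, linear axis from 0) of Mdm2, Cldn4 and Lyz2 in members grouped by the number of distinct rule markers (upper row) and by surfactant share in percent (lower row), in the CKO (red) and control (blue) libraries, with 95% Poisson intervals. Under a surfactant share of 0.25% Mdm2 is at 1309.8 CPM in CKO and 1289.7 in control members, and in the next group at 1154 and 632.

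Open chromatin of the same nuclei was not used to choose them. Transposition counts in peaks were summed over each gene (its RefSeq extent and 2 kb upstream) and scaled to 1000000 peak counts of the class. Peaks were called separately in each library, so ratios were taken within a library. The members held 911294 peak counts in the CKO library and 653854 in the control library, and 125 CKO and 102 control members had under 1000 each.

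Over the 6 marker genes together, members had 269 counts in the CKO library against 1143 in AT2-rich nuclei, a log2 ratio of 0.62 (0.43 to 0.82). In the control library they had 161 counts against 402, a ratio of 0.32 (0.05 to 0.59). Without the nuclei with UMIs of other lineages the ratios were 0.65 (0.43 to 0.87) and 0.31 (0.02 to 0.59). In the CKO library the interval lay above 0 under every alternative tried, while in the control library it crossed 0 under 4 of 15. These were surfactant under 0.5% (0.28, -0.04 to 0.58), surfactant under 2% (0.15, -0.30 to 0.62), a higher UMI minimum (0.28, -0.02 to 0.59) and promoter peaks alone (0.19, -0.26 to 0.63). Over the 8 surfactant-system genes the ratio was -0.69 (-0.86 to -0.52) in the CKO library and -0.36 (-0.56 to -0.18) in the control library. Over the 5 AT1 genes of the rule it was -0.11 (-0.29 to 0.06) and -0.09 (-0.32 to 0.13), and no difference was detectable at this depth. Of the listed genes outside the rule, p53 targets summed to 0.19 (0.13 to 0.26) in the CKO library, with 27 of 35 above 0, and 0.03 (-0.05 to 0.12) in the control library, with 17 of 32. AT2 identity genes summed to -0.33 (-0.41 to -0.25), with 1 of 24 above 0, and -0.22 (-0.32 to -0.12), with 6 of 24.

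Single markers carried this unequally. Of 17523 genes measured in the CKO library 3.75% were 2-fold higher in members and 4.91% lower, and of 15377 in the control library 3.81% and 5.81%. Abcb1b (chromosome 5, 8798147 to 8866314, GRCm38) had 52 counts in CKO members and 90 in AT2-rich nuclei, a log2 ratio of 1.92 (1.40 to 2.43), against 27 and 60 in the control library, a ratio of 0.49 (-0.22 to 1.17). Over AT1-like nuclei the CKO ratio of Abcb1b was 0.35 (-0.28 to 0.99). Eda2r (chromosome X, 97333837 to 97377234) had 14 counts against 24 in the CKO library, a ratio of 1.93 (0.87 to 2.94), which was 1.07 (-0.51 to 2.40) without the nuclei with UMIs of other lineages. In the control library it had 3 counts against 4, too few to place. Tshr was at 0.70 (0.24 to 1.13) in the CKO library and -0.29 (-0.95 to 0.32) in the control library, while Dscaml1 was at 0.29 (-0.42 to 0.94) and 1.2 (0.48 to 1.91). Atg9b and Anks1b had intervals across 0 in both libraries. Mdm2 was at 0.60 (0.17 to 1.01) in the CKO library and -0.04 (-0.71 to 0.58) in the control library, and Trp53 at 0.74 (0.45 to 1.02) and -0.12 (-0.67 to 0.41). Without the nuclei with UMIs of other lineages Mdm2 was at 0.47 (-0.05 to 0.96) and 0.03 (-0.68 to 0.69), both intervals across 0.

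Surfactant genes were less open as a group in members of both libraries, and the summed intervals of the libraries overlapped. In the control library the intervals of Sftpb, Sftpa1 and Sftpd alone, of the 8 genes in the rule, lay below 0. Without nuclei with UMIs of other lineages, control Sftpd (-0.72, -1.62 to 0.08) and CKO Sftpa1 (-0.83, -1.86 to 0.05) had intervals across 0. Sftpb had 14 counts in CKO members against 314 in AT2-rich nuclei (-1.78, -2.66 to -1.01), and 35 in control members against 163 (-0.58, -1.15 to -0.04). Lamp3, whose product lies in the lamellar bodies that store surfactant, had 16 against 329 (-1.65, -2.47 to -0.93) in the CKO library and 34 against 115 (-0.12, -0.71 to 0.45) in the control library. Sftpc, which the rule did not count, had 9 against 140 (-1.25, -2.41 to -0.28) in the CKO library and 5 against 63 (-2.01, -3.69 to -0.72) in the control library. Slc34a2, a phosphate transporter gene low in RNA, showed no detectable difference, at 0.03 (-0.42 to 0.46) in the CKO library and -0.19 (-0.73 to 0.33) in the control library.

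Across genes, chromatin and RNA leaned the same way. Of 555 genes with RNA 2-fold higher in members of both libraries, 367 (66.1%) had a chromatin ratio above 0 in the CKO library, with a median of 0.18, and in the control library 328 of 530 (61.9%) did, with a median of 0.17. Of genes with RNA 2-fold lower in both, 14 of 145 (9.66%) lay above 0 in the CKO library and 29 of 142 (20.4%) in the control library, with medians of -0.43 and -0.32. Over all genes 50.5% and 49.0% lay above 0. Genes are not independent replicates, and these shares describe 2 libraries.

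**Figure D3:**
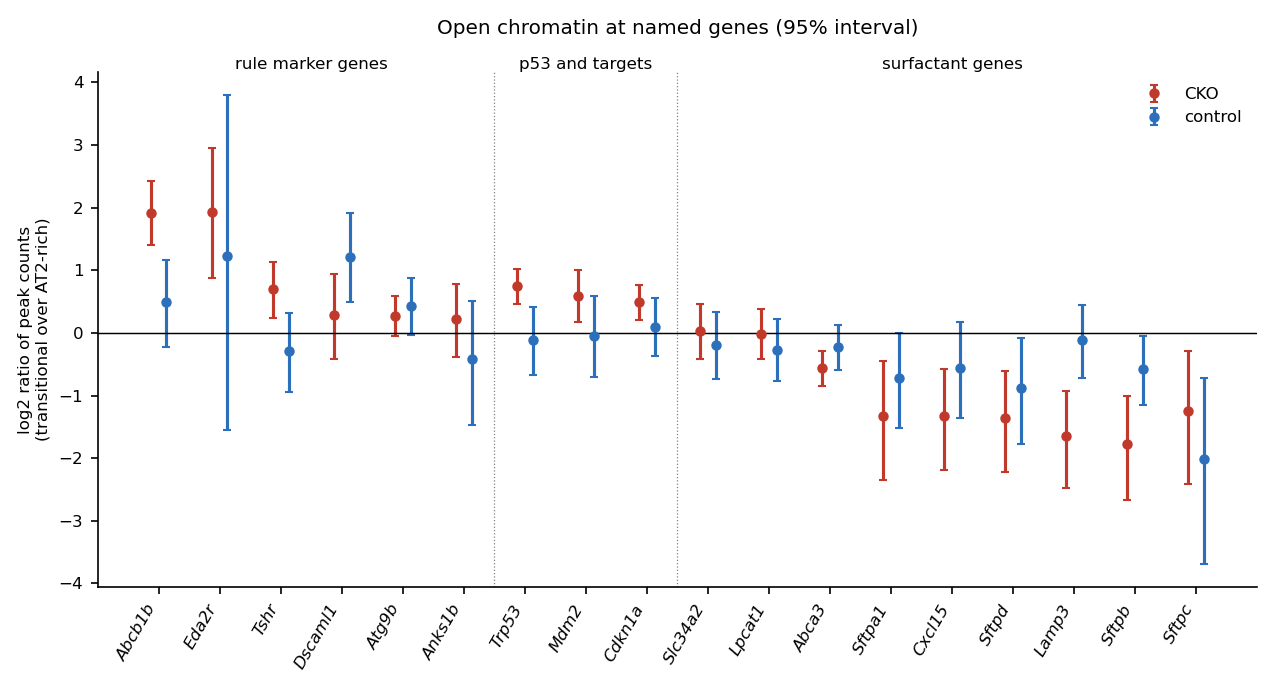
Log2 ratio of peak counts at 18 genes, transitional over AT2-rich nuclei, in the CKO (red) and control (blue) libraries, with 95% counting intervals; the horizontal line marks no difference. Abcb1b is at 1.92 in the CKO library and 0.49 in the control library, and Sftpb at -1.78 and -0.58.

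Among the 8 genes with chromatin ratios furthest above 0 in both libraries were Bdkrb2, Loxl4, Ereg, Fhl2, Abcc8, B3gnt3 and Sema6d. Fhl2, which encodes a LIM-domain cofactor, had 51 counts in CKO members against 142 in AT2-rich nuclei (1.23, 0.74 to 1.71) and 46 in control members against 45 (1.67, 1.05 to 2.30), and RNA log2 ratios of 3.47 and 4.19. Ereg, the gene of the EGF-family ligand epiregulin, had 14 against 25 (1.87, 0.82 to 2.87) in the CKO library and 15 against 6 (2.96, 1.52 to 4.62) in the control library. Bdkrb2, the bradykinin B2 receptor gene, had 25 against 48 (1.77, 1.01 to 2.5) in the CKO library and 20 against 10 (2.64, 1.48 to 3.90) in the control library. Among the lowest 8 was Slc15a2, a peptide transporter gene, with 4 counts in CKO members against 242 (-3.21, -5.09 to -1.83) and 4 in control members against 62 (-2.31, -4.23 to -0.88).

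Promoters of Abcb1b, Mdm2 and Cdkn1a are shown because their RNA stood high in members, a peak covers each, and each holds a p53 half-site. They were picked for the half-site. The windows of Anks1b and Eda2r lie under peaks and have none, nor does a further Cdkn1a window, whose peak held 54 counts in CKO members and 221 in AT2-rich nuclei (0.68, 0.22 to 1.11). Each runs 5′ to 3′ on the gene's strand over 250 bases before and 50 after a RefSeq start (GRCm38.p6), and capitals mark matches to the p53 half-site, whose reverse complement matches the same pattern.
Abcb1b, chr5:8797897-8798196, plus strand: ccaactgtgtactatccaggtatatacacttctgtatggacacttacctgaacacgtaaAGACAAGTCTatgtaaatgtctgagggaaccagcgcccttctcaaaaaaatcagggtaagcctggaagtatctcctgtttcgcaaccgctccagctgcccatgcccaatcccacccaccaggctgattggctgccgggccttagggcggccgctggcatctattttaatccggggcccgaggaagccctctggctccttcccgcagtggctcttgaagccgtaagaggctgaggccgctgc
Mdm2, chr10:117710709-117711008, minus strand: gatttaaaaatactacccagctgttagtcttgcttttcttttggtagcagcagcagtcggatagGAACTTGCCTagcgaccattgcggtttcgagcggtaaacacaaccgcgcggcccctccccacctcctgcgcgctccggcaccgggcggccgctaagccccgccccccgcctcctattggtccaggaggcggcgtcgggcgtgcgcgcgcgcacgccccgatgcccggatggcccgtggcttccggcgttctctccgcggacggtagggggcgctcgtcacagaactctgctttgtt
Cdkn1a, chr17:29090729-29091028, plus strand: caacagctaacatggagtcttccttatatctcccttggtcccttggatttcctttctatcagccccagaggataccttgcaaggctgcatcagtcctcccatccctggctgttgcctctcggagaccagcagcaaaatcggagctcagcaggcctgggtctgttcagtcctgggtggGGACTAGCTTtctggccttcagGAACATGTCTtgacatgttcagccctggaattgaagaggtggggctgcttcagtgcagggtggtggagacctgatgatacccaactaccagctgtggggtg
The half-site begins 191 bases before the start of Abcb1b and 186 before that of Mdm2, and the Cdkn1a window has a pair, 73 and 51 bases before the start. Of all 32851 promoter windows of this length 8.36% hold at least 1 half-site. Of 27 p53 list genes with a peak over a promoter window, 9 have one. This counts genes, some with several windows, and only where a peak lies, so the share of all windows is no measure for it. An AP-1 site (TGACTCA, or its reverse complement TGAGTCA) is in 5.20% of all windows and in none of those shown.

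At the Abcb1b promoter shown above, the overlapping peak held 48 counts in CKO members and 56 in AT2-rich nuclei. This is 52.7 against 9.38 per 1000000 peak counts, a log2 ratio of 2.49 (1.90 to 3.07). In control members the peak held 21 counts against 38, 32.1 against 18.6 per 1000000, a ratio of 0.79 (-0.06 to 1.59). The interval of the CKO library lay wholly above that of the control library. At the Mdm2 promoter the ratio was 0.61 (0.15 to 1.04) in the CKO library, from 54 and 232 counts, and -0.04 (-0.71 to 0.58) in the control library, from 28 and 90. The peak over the Cdkn1a window had 6 counts in CKO members against 15, a ratio of 1.39 (-0.26 to 2.84), and 6 in control members against 4, a ratio of 2.23 (0.15 to 4.49). A half-site did not always go with a higher ratio. At Sesn1, a sestrin gene with a half-site before one of its starts, the peak there was at -0.47 (-1.14 to 0.15) in the CKO library and 0.13 (-0.42 to 0.65) in the control library.

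The second comparison sets the members of the CKO library against those of the control library and addresses loss of the prostaglandin I2 receptor in the AT2 lineage. The whole scale was shifted. The median log2 ratio of 9987 genes with at least 20 UMIs in both together was 0.46, and it was 0.41 without nuclei with UMIs of other lineages and 0.21 under median-of-ratios scaling. Gm42418, which gathers reads of ribosomal RNA, was at 57317 CPM in CKO members and 97633 in control members. At least 2-fold higher in CKO members were 2336 genes (23.4%) and at least 2-fold lower 313 (3.13%), so that 88.2% of genes past 2-fold were higher. Under median-of-ratios scaling 1591 were higher and 521 lower, or 75.3% higher. Without nuclei with UMIs of other lineages 1959 (21.5%) were higher and 323 (3.54%) lower, of 9128 genes.

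Of the markers in the rule, Atg9b had 146 UMIs in CKO members and 28 in control members, a log2 ratio of 2.30 (1.71 to 2.94), and Abcb1b had 431 and 205, a ratio of 0.99 (0.75 to 1.24). Both lay above the median of all genes. Tshr was lower in CKO members, at 220.2 CPM against 267 (-0.28, -0.52 to -0.04), a sign that turned with at least 5 marker UMIs. Dscaml1 (0.36), Eda2r (0.10) and Anks1b (0.10) were below the median of all genes, and each changed sign under at least 3 of 18 alternatives. Members needed 3 UMIs over the 6 genes together, so the levels of the 6 are not free of one another.

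Among p53 targets, the log2 ratio of Mdm2 in CKO over control members was 0.65 (0.53 to 0.77), 0.73 without nuclei with UMIs of other lineages, and 0.40 under median-of-ratios scaling. The same contrast was 0.34 in AT2-rich and -0.39 in AT1-like nuclei. Of 32 measured targets 8 were 2-fold higher in CKO members and 0 lower, beside 23.4% of all genes higher. Their median was 0.66, and 20 lay above the median of all genes. Without nuclei with UMIs of other lineages 10 were higher and 0 lower, with a median of 0.71. The highest were Ptp4a3 (1.74, 1.2 to 2.30), Perp (1.59, 1.06 to 2.16), a gene of desmosomes, the death receptor gene Tnfrsf10b (1.53, 0.86 to 2.24) and the survival gene Bcl2l1 (1.34, 1.13 to 1.55). The lowest were Gdf15 (-0.77, -1.12 to -0.42), Btg2 (-0.23), Ckap2 (-0.13) and Plcd4 (-0.08). No difference in Trp53 was detectable (-0.11, -0.71 to 0.49), and Cdkn1a was at 0.29 (0.12 to 0.45), below the median of all genes, and at 0.04 under median-of-ratios scaling.

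The difference in Mdm2 was found in some members and not in others. With a surfactant share under 0.25%, Mdm2 had 806 UMIs in CKO members and 482 in control members, a log2 ratio of 0.02 (-0.14 to 0.19). From 0.25% to 1% it had 675 and 415 UMIs, a ratio of 1.06 (0.89 to 1.24). The intervals of the lower and upper group did not overlap. Eda2r differed between them in sign, at -0.66 (-1.14 to -0.18) in the lower and 0.64 (0.22 to 1.06) in the upper group, as did Dscaml1, at -0.33 (-0.64 to -0.02) and 0.85 (0.54 to 1.16). The p53 list had medians of 0.48 and 0.74, beside 0.31 and 0.41 over all genes. This split was made after the levels of Mdm2 by surfactant share were seen.

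Transitional state genes had a median of 0.94, with 12 of 29 at least 2-fold higher in CKO members and 1 lower, and 13 and 0, with a median of 0.89, without nuclei with UMIs of other lineages. Beside these stand 23.4% and 3.13% of all genes, and 21.5% and 3.54% without those nuclei. Sprr1a, a cornified envelope gene, had 77 UMIs in CKO and 11 in control members (2.73, 1.81 to 3.79). S100a6, a calcium-binding protein gene, had 685 and 127 (2.35, 2.08 to 2.64), and Krt19 171 and 39 (2.05, 1.55 to 2.60). The contrast was not limited to members, since S100a6 was at 3.01 in AT2-rich and 1.99 in AT1-like nuclei, and Krt19 at 1.70 and 1.5. The EGF-family ligand genes Hbegf (-1.04, -1.38 to -0.71) and Areg (-0.83, -1.2 to -0.46) were lower in CKO members. Krt8 was at 393 CPM in CKO and 262 in control members (0.58, 0.37 to 0.79). Below a surfactant share of 0.25% the median of the list was 0.50, and above it 1.06.

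AT2 genes outside the rule were lower in CKO members. Of 24 measured 11 were at least 2-fold lower and 0 higher, with a median of -0.88, beside 3.13% of all genes lower and 23.4% higher. Without nuclei with UMIs of other lineages 10 were lower, with a median of -0.68, beside 3.54% of all genes. Acoxl, an acyl-CoA oxidase family gene, had 56 UMIs in CKO and 311 in control members (-2.55, -2.99 to -2.14), and Hc, the complement C5 gene, 134 and 492 (-1.95, -2.24 to -1.68). Sftpc stood at 17.0 CPM in CKO members and 53 in control members (-1.64, -2.43 to -0.91), while in AT2-rich nuclei its ratio was 0.44. Lyz2 stood at 342 CPM in CKO members and 661 in control members (-0.95, -1.12 to -0.78), but below a surfactant share of 0.25% its ratio was 0.70 (0.23 to 1.19). Ctsh, a cathepsin gene, was the highest of the list (0.59, 0.43 to 0.75). Below 0.25% the median of the list was -0.15, and above it -0.72. With nuclei thinned to 1000 UMIs before the rule, which changes the members, it turned to 0.01.

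AT1 identity genes had a median of 0.76, with 6 of 25 at least 2-fold higher in CKO members and 1 lower, a share near that of all genes. In AT2-rich nuclei 15 of 26 were higher, with a median of 1.11. The median over all genes there was 0.44, and their share past 2-fold is not given here. Without nuclei with UMIs of other lineages 7 of 25 were higher in CKO members and 2 lower, with a median of 0.69. Cav1, the caveolin 1 gene, had 78 UMIs in CKO and 17 in control members (2.12, 1.35 to 2.97), and Hopx 65 and 20 (1.62, 0.88 to 2.42). Timp3, a metalloprotease inhibitor gene, was lowest (-1.09, -1.26 to -0.92), and Ager did not differ detectably (0.09, -0.20 to 0.38).

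Jun and other immediate early genes, which respond fast to stimuli and to tissue handling, were lower in CKO members. Jun stood at 266 CPM in CKO members (329 UMIs) and 765 in control members (895 UMIs), a log2 ratio of -1.52 (-1.71 to -1.34). It was at -1.58 without nuclei with UMIs of other lineages, -1.77 under median-of-ratios scaling, and -1.08 and -1.57 below and above a surfactant share of 0.25%. Jun was lower in the other CKO classes too, at -1.16 in AT2-rich and -1.15 in AT1-like nuclei. Of 12 measured AP-1 genes Fosb (-2.02), Jun and Atf3 (-1.10) were at least 2-fold lower, and Maf, from 22 and 7 UMIs, was higher (1.57, 0.30 to 3.04). The AP-1 list had a median of -0.78, and without nuclei with UMIs of other lineages 3 of 11 were lower and 0 higher. Of 17 immediate early genes 7 were at least 2-fold lower and 0 higher, with a median of -0.64. Beside both lists stand 3.13% of all genes lower and 23.4% higher. Egr1 stood at 89.1 CPM in CKO members and 489 in control members (-2.46, -2.76 to -2.16), and at -2.69 in AT2-rich and -2.28 in AT1-like nuclei. The nuclear receptor genes Nr4a3 (-2.33), Nr4a2 (-2.19) and Nr4a1 (-1.62) were lower, while Dusp1, a phosphatase gene, was at 0.66 (0.44 to 0.89).

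The receptor for prostaglandin I2 raises cyclic AMP, so genes of both systems were listed. Of 22 prostaglandin genes only 10 had 20 UMIs, of which 2 were at least 2-fold higher in CKO members and 2 lower, beside 23.4% and 3.13% of all genes. Without nuclei with UMIs of other lineages 0 of 7 were higher and 2 lower, beside 21.5% and 3.54% of all genes. The cyclooxygenase genes Ptgs2, with 73 UMIs in CKO and 224 in control members (-1.70, -2.10 to -1.31), and Ptgs1, with 53 and 131 (-1.38, -1.87 to -0.91), were the lower pair. Ptgis, which encodes prostacyclin synthase, had 48 UMIs in CKO members and 1 in control members (5.51, 2.96 to 10.84), and 9 and 0 without nuclei with UMIs of other lineages. Of 22 measured cyclic AMP genes 4 were higher and 5 lower, with a median of 0.27, beside the same shares of all genes, 23.4% and 3.13%. Without nuclei with UMIs of other lineages 1 of 20 was higher, the adenylyl cyclase gene Adcy2 (1.24), and 5 were lower. Pde4d stood at 1891 CPM in CKO and 4394 in control members (-1.22, -1.29 to -1.15), while Pde4b, from 81 and 27 UMIs, was at 1.51 (0.86 to 2.19), and at 0.93 (0.14 to 1.76) without those nuclei. Ppargc1a, a cyclic AMP-responsive coactivator gene, had 86 and 340 UMIs (-2.06, -2.42 to -1.72).

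NF-kB genes lay below the median of all genes in each case. Of 17 measured 4 were at least 2-fold lower in CKO members and 0 higher, with a median of -0.20, and without nuclei with UMIs of other lineages 5 of 16 were lower, with a median of -0.41. The 4 were Cxcl1, a neutrophil-attracting chemokine gene (-2.59, -3.53 to -1.76), Tnfaip3, an NF-kB inhibitor gene (-1.46, -1.91 to -1.03), the alarmin gene Il33 (-1.09, -1.64 to -0.57) and Nfkbiz (-1.07, -1.31 to -0.83). Over all genes 23.4% were at least 2-fold higher in CKO members and 3.13% lower. Without nuclei with UMIs of other lineages these shares were 21.5% and 3.54%. Genes of glycolysis and the hypoxia response had a median of 0.71, with 6 of 19 higher and 1 lower, and 7 and 1 without those nuclei. The glycolytic enzyme genes Pgk1 (2.34, 1.43 to 3.36) and Aldoa (1.6, 1.04 to 2.20) were higher, and Ankrd37 was the lower one. Of 23 cytoskeleton and junction genes 7 were higher and 0 lower in members, and 6 and 0 without nuclei with UMIs of other lineages. In AT2-rich nuclei 9 were higher and 0 lower. The median of all genes there was 0.44 and their share past 2-fold is not given here, so the 2 counts cannot be compared. Those higher in members include the claudin genes Cldn7 (1.58, 0.93 to 2.28) and Cldn4 (1.12, 0.71 to 1.54). Long genes best known from neurons had a median of 0.47, with 8 of 33 higher and 4 lower, close to that of all genes. With nuclei thinned to 1000 UMIs before the rule, the medians of the AT1 (-0.09), immediate early (0.03), NF-kB (0.08), glycolysis and hypoxia (-0.06), cytoskeleton (-0.15) and neuronal (-0.14) lists changed sign.

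**Figure D4:**
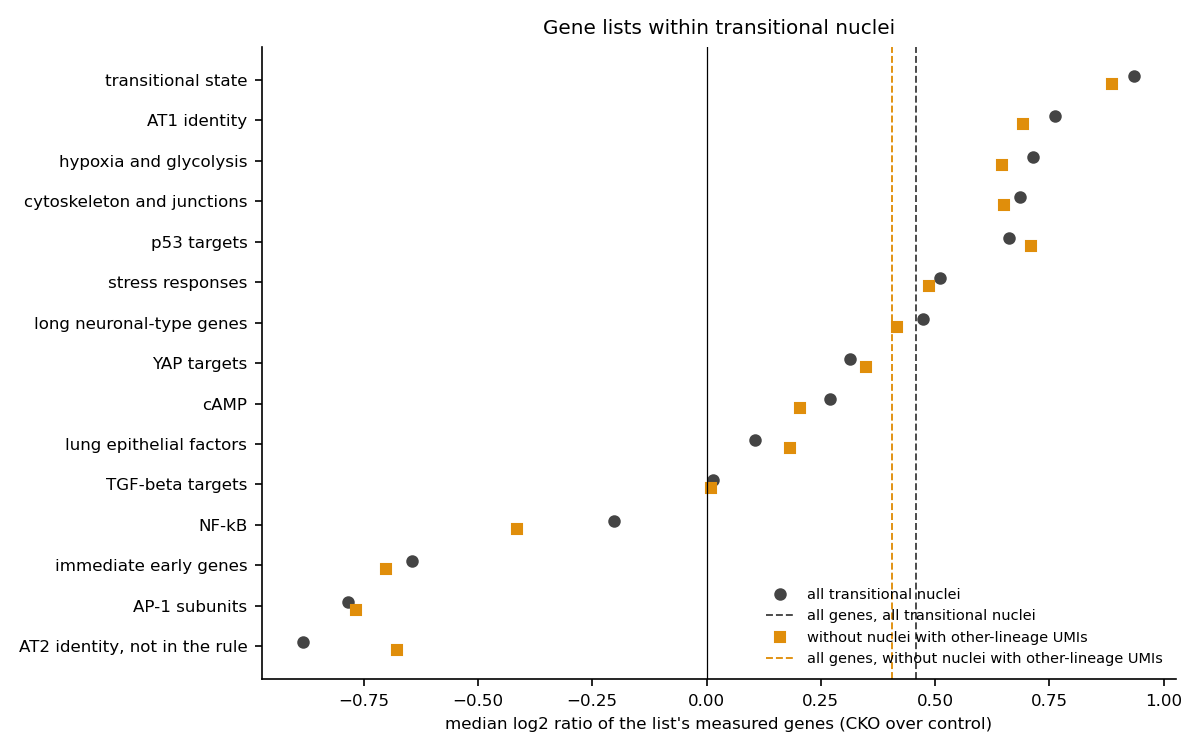
Median log2 ratio, CKO over control, of the measured genes of 15 lists within transitional nuclei, with all members (dots) and without nuclei that carry UMIs of other lineages (squares); dashed lines mark the median of all genes, 0.46 and 0.41. The transitional state list is highest at 0.94 with all members, and the AT2 identity list lowest at -0.88.

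The 12 genes furthest above the control library include genes best known from neutrophils, ciliated cells and club cells. They were S100a9, S100a8, Igfbp5, Dnah12, Gpm6a, Stk33, Scgb1a1, Spag17, Cdhr3, Srgn, Vim and Tmem212. S100a9, a neutrophil gene, had 75 UMIs in CKO members and 0 in control members, at least 4.57 higher on the log2 scale against a floor of 3 counts over the class. Dnah12, a motor protein gene of cilia, had 363 and 12 UMIs (4.84, 4.02 to 5.81), and without nuclei with UMIs of other lineages 9 and 4, a ratio of 1.28. Scgb1a1, the club cell secretory protein gene, had 1479 and 104 UMIs (3.75, 3.46 to 4.05), and 410 and 98 without those nuclei (2.17). Vim, an intermediate filament gene, had 66 and 2 UMIs, and 32 and 1 without them. These RNAs were not particular to members. Scgb1a1 had a UMI in 67.7% of CKO members, 67.6% of CKO AT2-rich, 70.0% of CKO AT1-like and 68.2% of CKO nuclei with Ptprc, and in the control library in 15.7%, 13.8%, 15.3% and 18.8% of the same classes. S100a9 had one in 15.7% of CKO members, 14.3% of CKO AT2-rich, 18.3% of CKO AT1-like and 26.2% of CKO nuclei with Ptprc. The part of free RNA in the other differences was not tested.

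The 12 genes furthest below the control library were Ttc23l, Fam71a, Ankrd37, Cpm, Egr1, Acoxl, Slc1a3, Opcml, Polg2, Tmprss7, Fosb and Pde7b. Ankrd37, a hypoxia-response gene, had 8 UMIs in CKO and 80 in control members (-3.40, -4.66 to -2.35). Cpm, a membrane carboxypeptidase gene, had 201 and 1045 (-2.46, -2.68 to -2.24). Pde7b, whose product breaks down cyclic AMP, had 206 and 805 (-2.04, -2.27 to -1.82), with -0.75 in AT2-rich and -0.81 in AT1-like nuclei. Ttc23l, from 11 and 158 UMIs (-3.92, -4.95 to -3.04), was at -3.93 in AT2-rich and -2.70 in AT1-like nuclei. Opcml, from 43 and 224 UMIs (-2.46), turned to 0.62 with a mitochondrial limit of 10%.

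**Figure D5:**
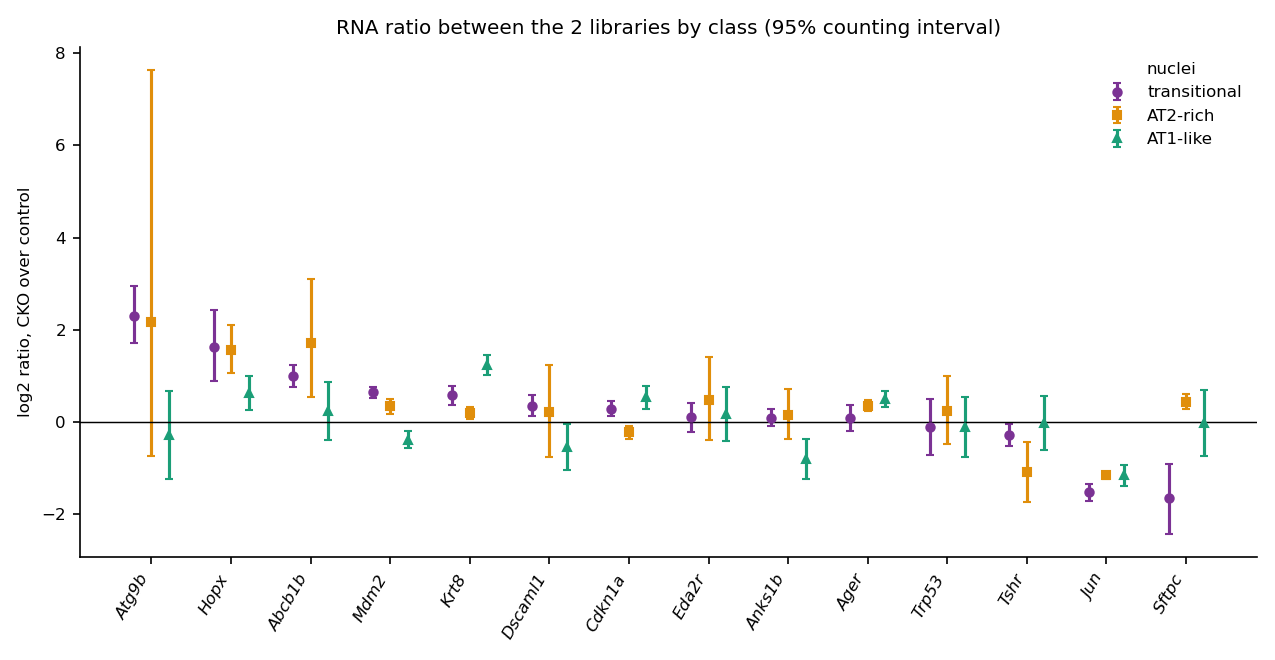
Log2 RNA ratio, CKO over control, of 14 genes in transitional (circles), AT2-rich (squares) and AT1-like (triangles) nuclei, with 95% counting intervals; the horizontal line marks no difference. Jun is below 0 in all 3 classes, at -1.52, -1.16 and -1.15, Mdm2 is at 0.65, 0.34 and -0.39, and Sftpc at -1.64, 0.44 and -0.01.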

How the data were processed

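RNA and open chromatin were measured in nuclei of GFP-positive lung cells of 1 CKO and 1 control library. The authors deposited, for each library, UMI counts per gene and transposition counts per peak in 1 joint matrix, made with Cell Ranger ARC 2.0.1 per the file headers. The submitters' processing notes name Seurat 4.1.0 and Signac 1.6.0 and the builds GRCm39 and GRCm38, with no role given. Peak coordinates and gene placements match GRCm38.

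The counts were used as deposited. Nuclei with 1000 to 25000 UMIs, at least 300 genes and under 20% mitochondrial UMIs were kept, and doublets were not removed. The rule for the members used measured RNA, and the members and gene lists were chosen with earlier results of these data known. For each class of a library UMIs were summed and scaled to CPM over nuclear-encoded genes. The 95% intervals were exact Poisson for levels, Clopper-Pearson for shares, and conditional-binomial for log2 ratios. All cover counting error only, and with 1 library per genotype no test was made. Genes needed 20 UMIs over both sides of a ratio, and a class at 0 was set to a floor of 3 counts. Named genes were the 12 highest and 12 lowest of a comparison by the interval bound nearest 0 (8 each for chromatin; 50 UMIs for the genotype contrast), the rule's genes, and the 4 highest and lowest of each list. Genes named outside that rule (in the paragraphs on prostaglandin, cyclic AMP and NF-kB genes, and a few list members) were chosen after their values were seen. Promoters came from RefSeq (GRCm38.p6), where 25739 of 31053 genes were placed by symbol. Scripts ran in Python 3.11.15 with numpy 2.4.6, scipy 1.17.1, pandas 2.3.3 and matplotlib 3.10.9, and were checked on simulated data. Some genes that the naming rule picks are not reported here.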

Additional observations from a re-analysis of the deposited data

Results flagged for a closer look

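For 4 measures the CKO over control contrast pointed one way in transitional nuclei and the opposite way in another class of the same libraries. With 1 library per genotype, none of these differences was tested, and the depth, scaling and other-lineage RNA of the classes differ. Mdm2 had a log2 ratio of 0.65 in transitional and -0.39 in AT1-like nuclei. Cdkn1a was at 0.29 in transitional and -0.22 in AT2-rich nuclei, and its ratio in transitional nuclei was 0.04 under median-of-ratios scaling and -0.32 (-0.81 to 0.17) after thinning to 1000 UMIs, the direction of AT2-rich nuclei. Sftpc was at -1.64 in transitional nuclei, where it had 21 CKO and 62 control UMIs, and at 0.44 in AT2-rich nuclei, which were chosen for surfactant RNA. The summed genes of the integrated stress and unfolded protein responses were at 0.18 in transitional and -0.16 in AT2-rich nuclei.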

How the results depend on the processing

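Under 17 listed alternatives and 2 added after the data were seen, 221 results gave 3767 values. Of these, 2564 stayed within a range set around the main value, 1201 moved further and 2 changed sign while called. The range was the counting interval for shares and ratios and 1.5 times for counts. For a list median it was the interval of the list's summed ratio moved onto the median, and for the median of all genes a fixed width. Neither of these last 2 is a counting error of the median. Leaving out a replicate was not possible with 1 library per genotype. No paired analysis was possible because each genotype has 1 library and no result comes from a test. The share of members moved to 9.10% in the CKO and 10.4% in the control library with 2 marker UMIs, 3.29% and 3.26% with 5, 4.80% and 4.87% with surfactant under 0.5%, 7.41% and 8.97% with a higher UMI minimum, 6.98% and 8.27% without the AT1 condition, 2.01% and 2.13% after thinning, 5.08% and 5.18% with 2 distinct markers, and 4.67% and 3.56% with no mitochondrial limit. In the CKO library alone it moved to 6.89% with a mitochondrial limit of 10%, 9.23% with fewer than 2 leukocyte UMIs and 7.65% without other lineages, and in the control library alone to 8.13% with surfactant under 2%. Genes at least 2-fold higher in CKO members numbered 1460 with a mitochondrial limit of 10%, 1524 with fewer than 2 leukocyte UMIs, 229 after thinning (68.8% of those past 2-fold) and 1141 with 50 UMIs per gene. Genes 2-fold lower numbered 189 with fewer than 2 leukocyte UMIs, 104 after thinning, 521 under median-of-ratios scaling and 196 with 50 UMIs. Genes higher than in AT2-rich nuclei of both libraries numbered 286 with a mitochondrial limit of 10%, 1195 with none, 232 after thinning and 299 with 50 UMIs. Genes lower numbered 298 with surfactant under 0.5%, 242 with fewer than 2 leukocyte UMIs, 256 after thinning and 244 with the mean of each nucleus's CPM. The chromatin ratio at the 6 marker genes was 1.43 in the CKO library over promoter peaks, against 0.19 (-0.26 to 0.63) in the control library, and 0.74 in the control library after thinning. Opcml turned to 0.62 with a mitochondrial limit of 10% and to 0.040 with limits on peak counts per nucleus. Thinning and the 50-UMI limit leave fewer genes to count, and the cause of the other shifts was not tested.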
